A study of Mus musculus with 6 samples.

Results

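Microglia and macrophages are the resident phagocytes of the brain, and 44 of their genes were followed here in cultured mouse cortical astrocytes. The genes were taken by name from a deposited table of raw read counts for 54532 genes and were grouped by role into homeostatic microglia genes (12), lineage factors and pan-myeloid genes (13), Fc receptors with their signalling adaptors (6), the chains of complement C1q (3), activation and phagocyte genes (8) and genes of border macrophages (2). The table holds 6 RNA-seq libraries. Knockout libraries (3) came from primary cortical astrocytes of pups that carried Cre under the Gfap promoter and a floxed Neo1 gene (GFAP-Cre::NEOf/f), and control libraries (3) came from astrocytes of littermate pups. Controls carry no further genotype in the labels; Neoff in their library names points to the floxed gene without Cre. No source used here gives pup age, pooling of animals or days in culture. The Gfap promoter is active in astrocytes and radial glia, and is not a microglial promoter.

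Microglia and brain macrophages descend from the yolk sac and depend on the transcription factor PU.1 (Spi1). They survive on signals through the receptor CSF1R, whose ligands CSF1 and IL-34 are made by neighbouring cells, among them astrocytes. In the healthy brain microglia carry a homeostatic set of surface genes such as P2ry12, Tmem119 and Cx3cr1, and on activation they turn on receptors and lysosomal genes of phagocytosis, in part through TREM2 and its adaptor TYROBP. Primary astrocyte cultures from newborn cortex commonly hold some microglia.

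Library totals ran from 60819277 to 106081115 counts, of which the 44 genes together held 46049 to 94472. Neo1, which encodes the receptor neogenin, was at 101, 106 and 105 CPM (the count relative to library size, scaled by TMM) in knockout cultures and at 189, 189 and 198 CPM in control cultures, a log2 fold change of −0.89 (SE 0.05). This count covers every exon of Neo1 and so is no direct measure of the floxed segment. Astrocyte identity was present in every library: Gfap, an astrocyte filament gene, averaged 431 ± 3.85 CPM in knockout and 946 ± 20.8 CPM in control cultures (SD, n = 3 each). Of 9 astrocyte markers, 2 rose (Slc1a2 and Aqp4) and 5 fell, Gfap and Aldoc among them. Of all genes tested, 19.6% rose and 18.7% fell. On the second principal component (19.6% of the variance) knockout replicate 2 lay away from its group. The labels call the libraries of a group biological replicates but name no animal or culture per library. P-values here therefore cover only library-to-library spread, and some of that may be technical.

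Microglia and macrophage genes were mostly lower in the knockout cultures, but by very unequal amounts. Of the 44 genes, 41 had enough counts to test, 24 fell, 3 rose and 14 were not called (edgeR's quasi-likelihood test, Benjamini-Hochberg adjustment over all 18530 genes tested, threshold 0.05). Over all genes tested, 38.3% were called in either direction, 18.7% lower and 19.6% higher. The median log2 fold change was −0.60 over the 41 genes and −0.0018 over all genes tested. Values ran from −2.63 for Aif1 to 0.54 for Tmem119. Of the 41 genes tested, 11 were called lower by at least 2-fold, as were 1.97% of all genes tested. Without overlap between the groups, 26 of the 41 were lower in every knockout library, as were 24.5% of all genes tested, and 4 were higher, as were 24.7%. When libraries were scaled by total counts alone, 26 members fell and 2 rose, beside 4499 lower and 2921 higher over all genes, in place of 3466 and 3627. In bulk RNA, fewer cells of a type and less RNA per cell cannot be told apart.

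The summed level of the 44 genes was 629 to 641 CPM in knockout libraries and 872 to 905 CPM in control libraries, a ratio of 0.709. Summed by role, the ratio of knockout over control was 0.283 for C1q chains, 0.516 for Fc receptors and adaptors and 0.524 for border macrophage genes. It was 0.725 for activation and phagocyte genes, 0.7496 for lineage and pan-myeloid genes and 0.841 for homeostatic genes. The knockout and control libraries did not overlap in any of these sums. Abundant genes weigh most in a sum, so its ratio need not hold for each gene of the group. Lyz2 made up 190 of the mean activation sum of 464.5 CPM with the knockout, and 328 of 640.4 CPM without it. Csf1r made up 8.47 of the mean homeostatic sum of 40.9 CPM with the knockout, and 16.1 of 48.7 CPM without it. Ratios that leave out these genes were not tested.

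**Figure D1:**
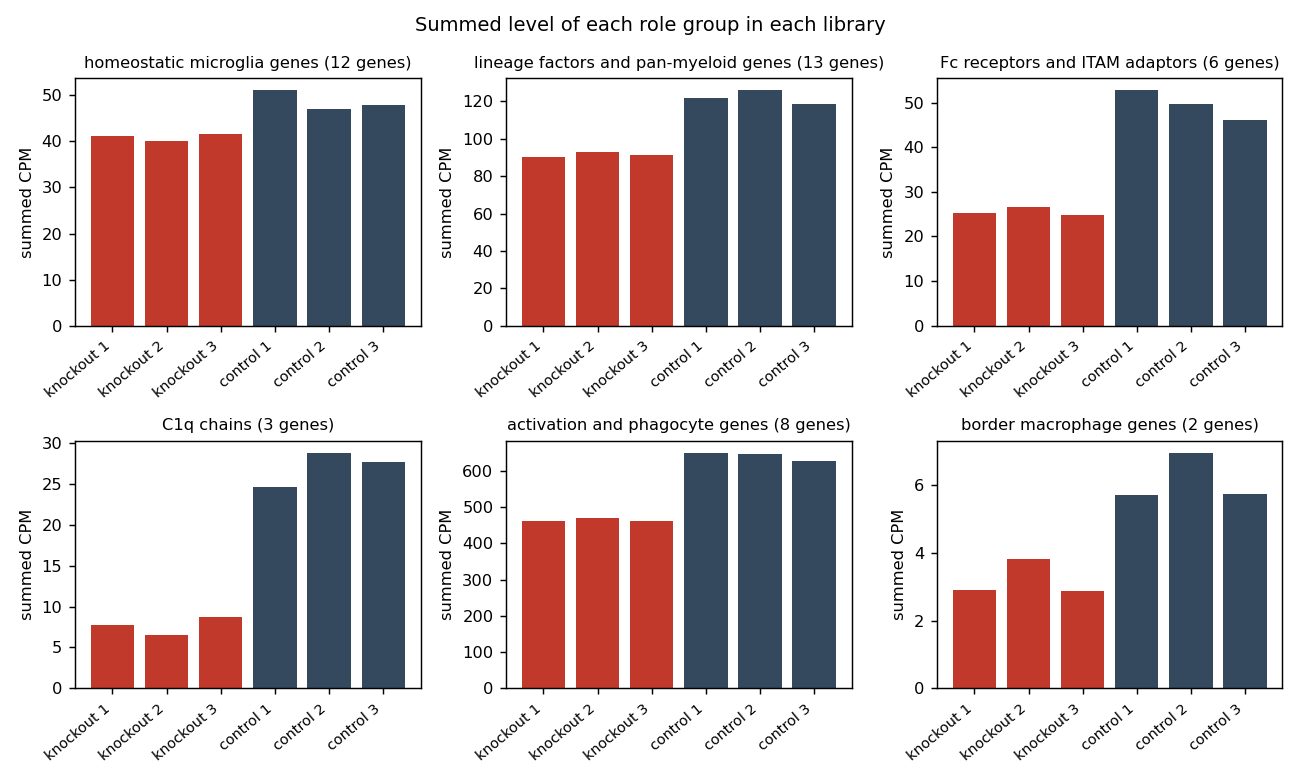
Bars give the summed CPM of each role group in each library, knockout libraries (red) left of control libraries (dark blue), with axes from 0. All bars of knockout cultures lie below those of control cultures, with the lowest ratio for the C1q chains (7.64 ± 1.13 CPM in knockout and 27.0 ± 2.15 CPM in control cultures, SD, n = 3 each).

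Of 12 homeostatic microglia genes, 9 were tested, of which 3 fell (Cx3cr1, Csf1r and Fcrls), 2 rose (Tmem119 and P2ry6) and 4 were not called, with a median log2 fold change of −0.52. Shares of 2 in 9 higher and 3 in 9 lower stand beside 19.6% and 18.7% of all genes tested, and the call of P2ry6 was not stable. Some genes of the group were too low to test. P2ry13, a nucleotide receptor gene, had 0 counts in all 6 libraries, which allows at most 0.0277 to 0.0482 CPM depending on depth. Siglech, a microglial lectin receptor gene, had 0, 0 and 4 counts in knockout libraries and 0 in each control library. Gpr34, a lysophosphatidylserine receptor gene, had 7, 0 and 11 counts in knockout libraries and 7, 2 and 6 in control libraries. P2ry12, the ADP receptor of microglial processes, was tested but held only 0.220, 0.383 and 0.192 CPM in knockout cultures and 0.482, 0.0725 and 0.277 CPM in control cultures, and the groups overlapped (log2 fold change −0.06, SE 0.69). A fall or rise of P2ry12 was not detectable at this depth, and without control replicate 1 its value was 0.55. Csf1r, P2ry6, Olfml3 and Tmem119 were measured at several CPM in every library, whereas Cx3cr1, Selplg, Fcrls and Hpgds were lower in some or all libraries.

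Csf1r, the receptor on which microglia depend for survival (GRCm38 chromosome 18, 61100598 to 61132149, plus strand), fell to 8.36, 8.61 and 8.45 CPM in knockout libraries, against 16.9, 17.1 and 14.3 CPM in control libraries. The fall was −0.92 on the log2 scale (SE 0.10, adjusted p = 9.8e-07), and 873 bases of its exons overlap Hmgxb3 on the other strand. Hmgxb3 itself was at 60.5, 62.4 and 58.2 CPM in knockout and 61.7, 60.5 and 62.4 CPM in control libraries. Fcrls, an Fc receptor-like scavenger receptor gene that marks mouse microglia, fell to 1.19, 2.23 and 1.24 CPM in knockout libraries, against 4.18, 4.35 and 4.18 CPM in control libraries (log2 fold change −1.45, SE 0.23, adjusted p = 6.5e-05). Cx3cr1, the fractalkine receptor, was at 0.178, 0.0137 and 0.301 CPM in knockout and 0.675, 0.537 and 1.34 CPM in control libraries. The 3 knockout libraries held 17, 1 and 22 of its counts, so the size of its fall (log2 fold change −2.37, SE 0.67, adjusted p = 0.0093) is imprecise. Without control replicate 3, its highest library, the Cx3cr1 value was −1.87 and the adjusted p 0.113, and without knockout replicate 3 it was −3.07.

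Tmem119, a microglial surface protein gene that bone-forming cells also express (chromosome 5, 113793729 to 113800516, minus strand), went the other way. It was at 7.09, 6.60 and 6.58 CPM in knockout libraries and 4.97, 4.13 and 4.88 CPM in control libraries, with no overlap (log2 fold change 0.54, SE 0.13, adjusted p = 0.0039). P2ry6, the UDP receptor that drives microglial phagocytosis, was at 14.5, 11.99 and 15.4 CPM in knockout and 12.4, 9.32 and 11.8 CPM in control libraries. The P2ry6 groups overlapped, and its call (log2 fold change 0.32, SE 0.12, adjusted p = 0.044) was lost without knockout replicate 1 (0.114) or 3 (0.184) and without control replicate 2 (0.249) or 3 (0.0649). It was also lost with total-count scaling (0.108) and without the robust option (0.0509). The other genes of the homeostatic group were not called. Olfml3, a secreted matrix protein gene, averaged 7.42 ± 0.427 CPM in knockout and 8.03 ± 0.898 CPM in control cultures. Hpgds, the haematopoietic prostaglandin D synthase, averaged 1.99 ± 0.270 and 2.86 ± 0.645 CPM in knockout and control cultures (log2 fold change −0.52, adjusted p = 0.073). Hpgds passed the threshold with total-count scaling (0.0424), without knockout replicate 2 (0.0364) and without control replicate 2 (0.0392). Selplg, the P-selectin ligand gene, was low as well, at 0.240 ± 0.185 CPM in knockout and 0.435 ± 0.156 CPM in control cultures.

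**Figure D2:**
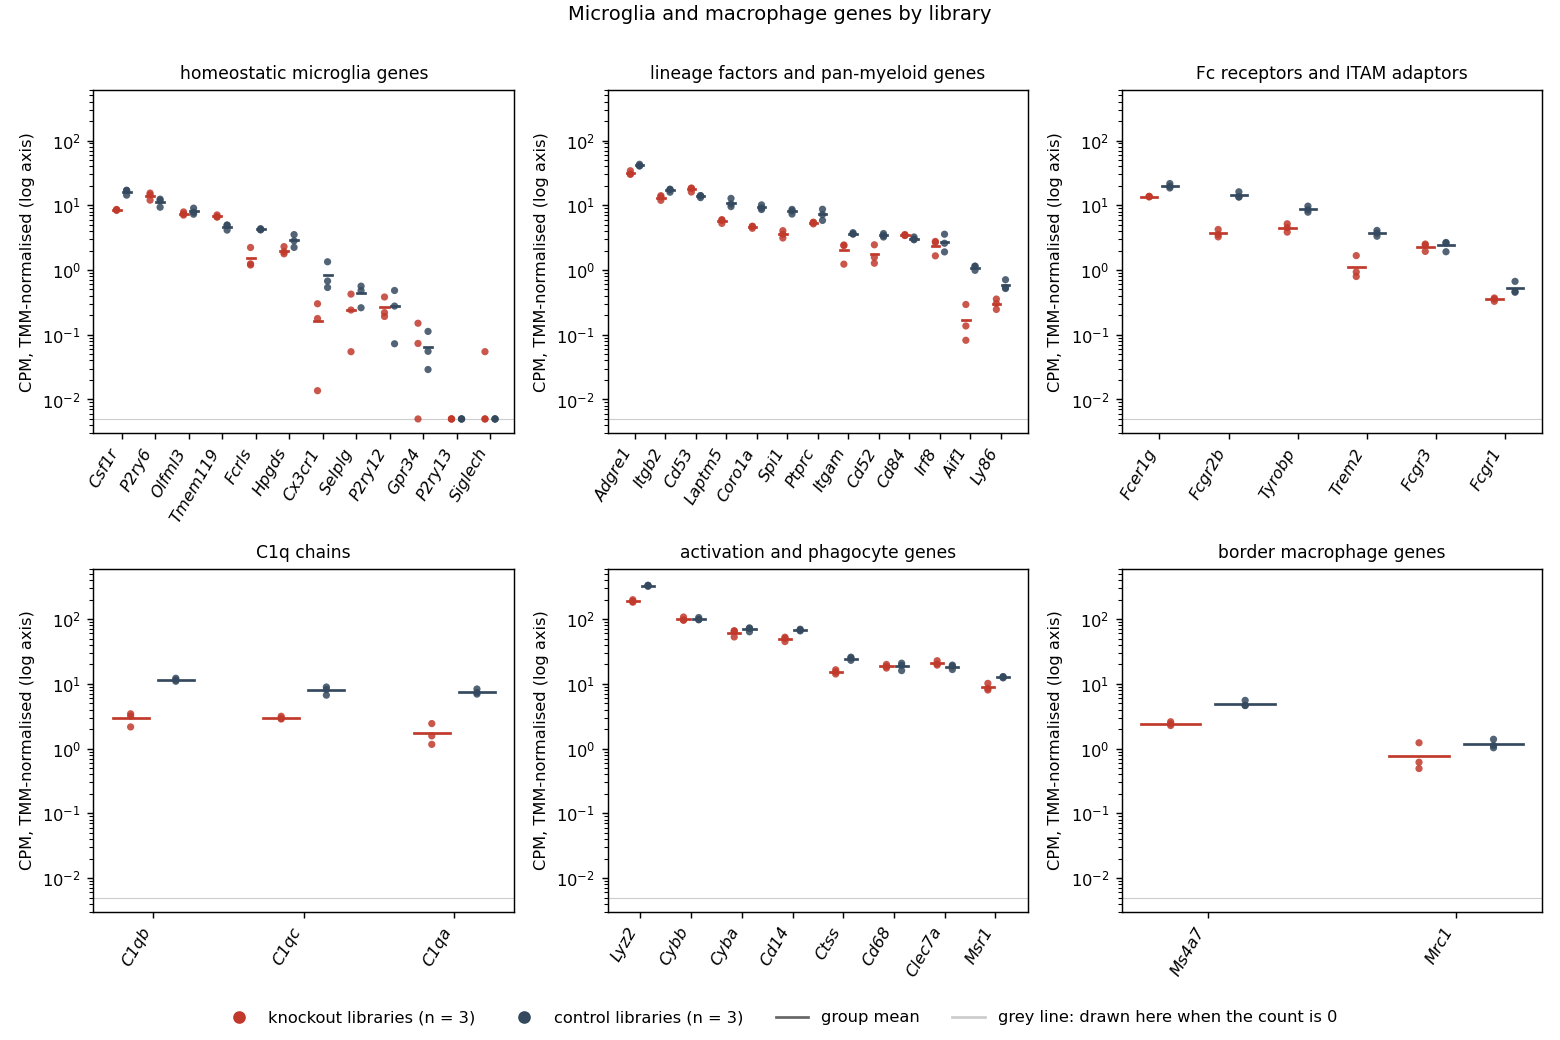
Each point is the CPM of a gene in 1 library on a log axis, knockout (red) left of control (dark blue), with a bar for the group mean where no library is at 0; genes with a count of 0 are drawn on the grey line. P2ry13, Siglech and Gpr34, which were not tested, sit lowest in both genotypes, whereas Lyz2, Cybb, Cyba and Cd14 sit highest.

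Lineage factors and pan-myeloid genes were lower in most cases. Of 13 tested, 9 fell, 1 rose and 3 were not called, and the median log2 fold change was −0.86. The share over all genes tested was 18.7% lower and 19.6% higher. Spi1, which encodes PU.1, fell to 3.57, 4.05 and 3.12 CPM in knockout libraries, against 7.32, 8.19 and 8.62 CPM in control libraries. The fall was −1.17 on the log2 scale (SE 0.14, adjusted p = 3.4e-06). Irf8, the factor that works with PU.1 in microglia, was at 1.65, 2.67 and 2.76 CPM in knockout and 2.59, 3.57 and 1.90 CPM in control libraries, and the groups overlapped (log2 fold change −0.18, SE 0.25, adjusted p = 0.62). Thus of the pair of lineage factors Spi1 fell and Irf8 was not called; the difference between them was not tested.

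Aif1, which encodes the microglial marker protein IBA1, had the largest fall among the 41 genes tested. It held 28, 10 and 6 counts in knockout libraries and 71, 79 and 107 in control libraries, or 0.293, 0.137 and 0.0821 CPM against 1.14, 1.15 and 0.988 CPM. The log2 fold change was −2.63 (SE 0.49, adjusted p = 3.1e-04), and −3.30 without knockout replicate 1. Coro1a, an actin regulator of leukocytes, averaged 4.62 ± 0.184 CPM in knockout and 9.27 ± 0.788 CPM in control cultures (log2 fold change −1.002). Laptm5, a lysosomal membrane protein gene of blood cells, averaged 5.70 ± 0.396 CPM in knockout and 10.9 ± 1.66 CPM in control cultures (−0.94). Cd52, a small surface glycoprotein gene of which 172 exon bases overlap Crybg2 on the other strand, averaged 1.76 ± 0.612 and 3.43 ± 0.213 CPM in knockout and control cultures (−0.95). These 3 genes each changed by about the same factor, and none of them overlapped between the groups. As a reference, 24.5% of all genes tested were lower in every knockout library.

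Genes of leukocyte integrins fell too. Itgb2, the β chain shared by leukocyte integrins, averaged 13.1 ± 1.11 CPM in knockout and 17.01 ± 0.971 CPM in control cultures (log2 fold change −0.37, SE 0.09). Itgam, its αM partner that forms complement receptor 3, averaged 2.01 ± 0.679 CPM in knockout and 3.66 ± 0.0972 CPM in control cultures (−0.86, SE 0.23). Itgam is uncertain, since 73.8% of its transcript aligns at 99.9% identity to the overlapping gene Gm49368, which was listed at 0 in all libraries. Adgre1, which encodes the macrophage antigen F4/80, had the highest CPM of the group. It was at 30.2, 34.1 and 30.2 CPM in knockout libraries and 40.7, 42.9 and 40.4 CPM in control libraries (−0.39, SE 0.07, adjusted p = 1.4e-04). Ptprc, the leukocyte phosphatase CD45, averaged 5.35 ± 0.170 CPM in knockout and 7.23 ± 1.42 CPM in control cultures (−0.44, adjusted p = 0.024). The call of Ptprc was lost without knockout replicate 1 (0.0663), control replicate 1 (0.0636) or control replicate 3 (0.164).

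Cd53, a tetraspanin gene of leukocytes (chromosome 3, 106759921 to 106790149, minus strand), rose. It was at 15.999, 18.3 and 18.3 CPM in knockout libraries and 14.1, 14.1 and 13.1 CPM in control libraries, without overlap (log2 fold change 0.35, SE 0.09, adjusted p = 0.0043). Cd84, a self-adhesion receptor gene of the SLAM family, averaged 3.46 ± 0.0636 CPM in knockout and 3.06 ± 0.159 CPM in control cultures and was not called (0.18, adjusted p = 0.44). Ly86, which encodes the MD-1 partner of the receptor RP105, averaged 0.302 ± 0.0549 CPM in knockout and 0.587 ± 0.105 CPM in control cultures (−0.95, SE 0.50, adjusted p = 0.15).

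**Figure D3:**
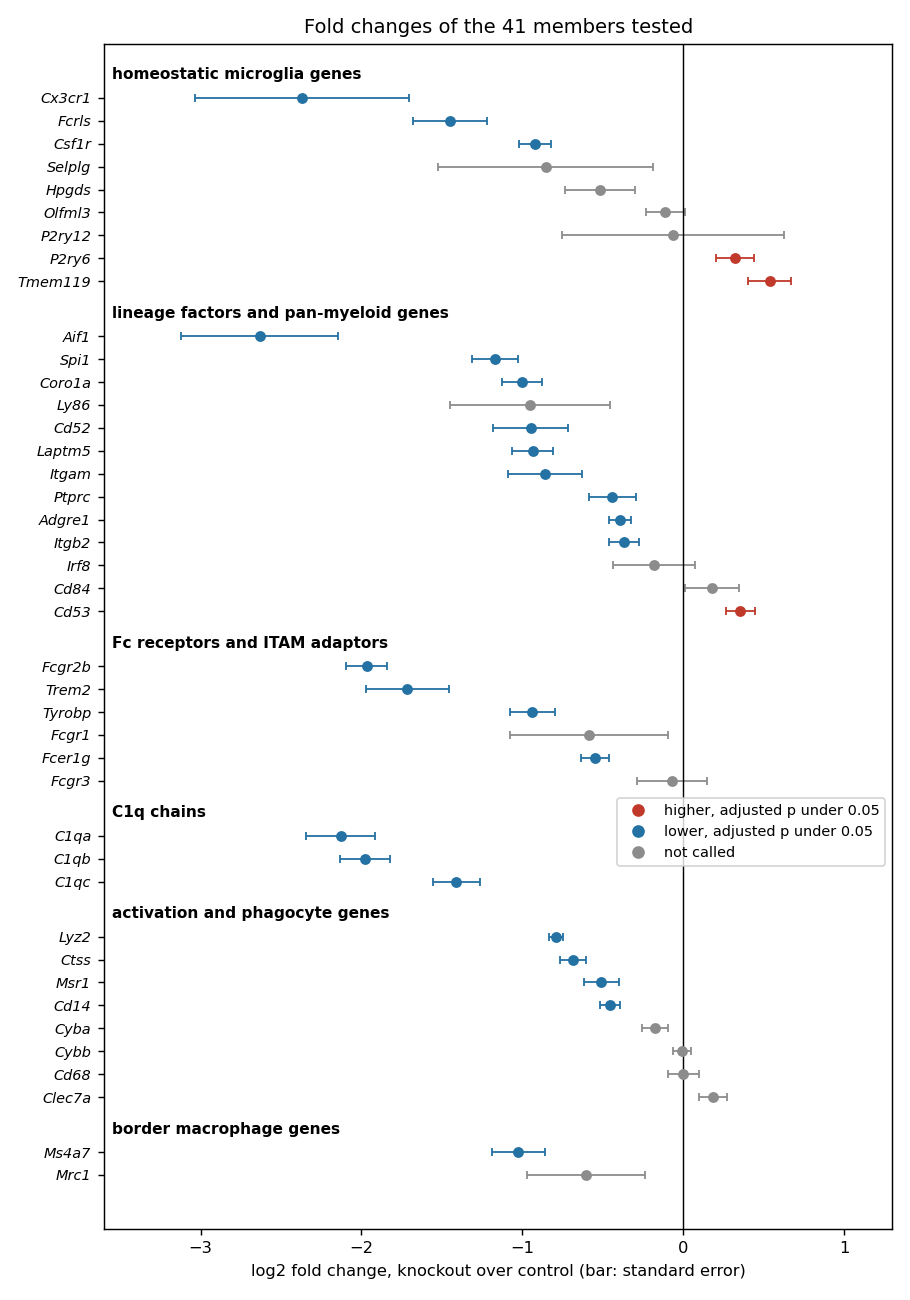
Points give the log2 fold change of knockout over control for the 41 genes tested, with the standard error as a bar, sorted within role groups; blue genes fell, red genes rose and grey genes were not called. Values range from −2.63 (Aif1) to 0.54 (Tmem119), and all 3 C1q chains lie between −2.13 and −1.41.

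All 3 chains of complement C1q fell by more than 2-fold, and their summed level had the lowest ratio of knockout over control among the role groups. Of all genes tested, 1.97% were called lower by at least 2-fold. C1q is the recognition molecule of the classical pathway, is built from A, B and C chains and in brain comes mainly from microglia, where it tags synapses and debris. The genes lie side by side on GRCm38 chromosome 4, minus strand, with C1qb at 136880129 to 136886187, C1qc at 136889804 to 136893065 and C1qa at 136895917 to 136898803. C1qa was at 1.57, 1.16 and 2.44 CPM in knockout libraries and 6.95, 8.32 and 7.31 CPM in control libraries (log2 fold change −2.13, SE 0.21, adjusted p = 4.2e-07). C1qb was at 3.17, 2.16 and 3.45 CPM in knockout and 11.0, 11.5 and 12.2 CPM in control libraries (−1.98, SE 0.15, adjusted p = 1.3e-08). C1qc was at 2.94, 3.16 and 2.86 CPM in knockout and 6.69, 8.93 and 8.17 CPM in control libraries (−1.41, SE 0.15, adjusted p = 5.8e-07). No knockout library reached the lowest control library for any chain, as was so for 24.5% of all genes tested.

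The proteases that C1q carries moved the opposite way. C1ra, which encodes C1r, rose to 65.9 ± 4.87 CPM in knockout cultures, against 36.0 ± 0.692 CPM in control cultures (log2 fold change 0.87). C1s1, which encodes C1s, rose to 55.2 ± 4.92 CPM in knockout cultures, against 25.8 ± 2.52 CPM in control cultures (1.10). Serping1, the inhibitor of both proteases, rose to 49.3 ± 3.59 CPM, against 37.5 ± 1.10 CPM in control cultures (0.39). The summed CPM of the C1q chains divided by that of C1ra and C1s1 was 0.0648, 0.0498 and 0.0763 in knockout libraries and 0.384, 0.462 and 0.468 in control libraries. The ratio restates the opposite directions of the genes given above and was not tested apart from them.

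PU.1 binds purine-rich sites in myeloid promoters. Promoter sequences are shown for 4 genes that fell and for Cd53, which rose, and every window shown holds a match to such a site. A part of PU.1 in the changes of these genes was not tested. RefSeq windows of 300 bases on GRCm38.p6 (250 before to 50 after the gene's start) were at hand for 31 of the 44 genes. Capitals mark GAGGAA, the core of a PU.1-type site, on either strand (TTCCTC on the other).
C1qb (chromosome 4, 136886151 to 136886450, minus strand): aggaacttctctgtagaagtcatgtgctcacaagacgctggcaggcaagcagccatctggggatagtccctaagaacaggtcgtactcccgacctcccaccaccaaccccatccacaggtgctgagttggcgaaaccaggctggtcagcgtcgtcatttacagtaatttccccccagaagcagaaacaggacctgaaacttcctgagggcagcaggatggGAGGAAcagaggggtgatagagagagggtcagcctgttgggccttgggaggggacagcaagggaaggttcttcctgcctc
C1qc (chromosome 4, 136892865 to 136893164, minus strand): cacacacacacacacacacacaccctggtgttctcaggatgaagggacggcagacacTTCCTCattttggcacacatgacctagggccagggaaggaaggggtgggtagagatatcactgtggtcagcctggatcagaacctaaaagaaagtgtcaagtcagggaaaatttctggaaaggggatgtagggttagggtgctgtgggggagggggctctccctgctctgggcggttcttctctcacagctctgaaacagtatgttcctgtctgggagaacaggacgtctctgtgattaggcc
Trem2 (chromosome 17, 48346151 to 48346450, plus strand): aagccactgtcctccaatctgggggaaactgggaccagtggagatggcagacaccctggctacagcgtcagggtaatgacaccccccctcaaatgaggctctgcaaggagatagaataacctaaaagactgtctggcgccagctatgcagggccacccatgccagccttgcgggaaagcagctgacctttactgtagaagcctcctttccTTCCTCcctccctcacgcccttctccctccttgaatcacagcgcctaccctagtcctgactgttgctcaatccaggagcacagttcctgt
Aif1 (chromosome 17, 35176003 to 35176302, minus strand): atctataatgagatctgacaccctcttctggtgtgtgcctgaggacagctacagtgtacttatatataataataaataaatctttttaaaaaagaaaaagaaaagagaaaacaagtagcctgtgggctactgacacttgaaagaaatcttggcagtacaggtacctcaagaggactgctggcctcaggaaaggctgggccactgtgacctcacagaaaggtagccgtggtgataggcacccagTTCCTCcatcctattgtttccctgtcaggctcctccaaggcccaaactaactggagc
Cd53 (chromosome 3, 106790100 to 106790399, minus strand): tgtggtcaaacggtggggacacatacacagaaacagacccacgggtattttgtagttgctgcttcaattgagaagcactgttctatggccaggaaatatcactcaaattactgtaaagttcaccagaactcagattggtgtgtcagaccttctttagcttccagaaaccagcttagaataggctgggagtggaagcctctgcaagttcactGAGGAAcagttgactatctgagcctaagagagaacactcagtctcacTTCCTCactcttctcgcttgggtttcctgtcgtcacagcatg

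The first base of the match lay 30 bases before the RefSeq start in C1qb, 193 in C1qc, 40 in Trem2 and 7 in Aif1. Cd53 had a pair of matches, 1 on each side of the start. Gene positions given elsewhere are from GENCODE and can set another start. For C1qc the GENCODE start, 136893065, lies further upstream than the RefSeq start, so the distance depends on the annotation. Of the 31 genes with a window, 21 held GAGGAA on either strand (67.7%), as did 31.3% of all 27025 genes with a window. A gene with more than 1 window counted if any of them held a match. GAGGAA was in 10 of the 15 genes that fell (66.7%) and in 11 of the 16 others (68.8%). Cx3cr1, Coro1a, Fcer1g, Fcgr2b and Lyz2 fell and had no match. The longer GAGGAAGT, which contains GAGGAA, was in 4 of 31 (12.9%, C1qc and Cd53 among them) against 3.69% of all. Letters in a window are a description and show neither binding nor its absence.

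Fc receptors and their adaptors were lower as far as they were called. Of 6 genes tested, 4 fell and 2 were not called, with a median log2 fold change of −0.76. The share over all genes tested was 18.7% lower and 19.6% higher. Fcgr2b, the inhibitory Fc receptor for IgG (chromosome 1, 170958617 to 170976547, minus strand), fell to 3.25, 4.22 and 3.53 CPM in knockout libraries, against 16.1, 13.5 and 13.4 CPM in control libraries. Its log2 fold change of −1.97 (SE 0.13) had an adjusted p of 1.5e-09. Fcgr3, an activating Fc receptor gene nearby on the same chromosome, was at 1.94, 2.42 and 2.52 CPM in knockout and 1.91, 2.61 and 2.66 CPM in control libraries (−0.07, SE 0.21, adjusted p = 0.84). The Fcgr2b transcript matches Fcgr3 at 96.3% identity over 512 bases, which makes the share of reads given to either gene uncertain. Fcgr1, the high-affinity activating receptor, averaged 0.351 ± 0.0211 CPM in knockout and 0.529 ± 0.120 CPM in control cultures and was not called (adjusted p = 0.39).

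Trem2, the lipid-sensing receptor of microglia (chromosome 17, 48346401 to 48354147, plus strand), was at 0.932, 1.67 and 0.793 CPM in knockout libraries and 4.08, 3.71 and 3.32 CPM in control libraries. The fall was −1.71 on the log2 scale (SE 0.26, adjusted p = 3.9e-05). Tyrobp, which encodes DAP12, the ITAM adaptor of TREM2, was at 5.17, 4.51 and 3.84 CPM in knockout and 8.52, 9.69 and 7.81 CPM in control libraries (−0.94, SE 0.14). Fcer1g, the ITAM adaptor of the activating Fc receptors, was at 13.6, 13.4 and 13.8 CPM in knockout and 21.6, 19.6 and 18.5 CPM in control libraries (−0.55, SE 0.09). All 3 genes fell without overlap between the groups, and 24.5% of all genes tested were lower in every knockout library.

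Of 15 signalling genes of blood cells that act downstream of such adaptors, 6 fell, 0 rose and 9 were not called (median −0.26). Over all genes tested, 18.7% were lower and 19.6% higher. Plek, a substrate of protein kinase C, averaged 31.9 ± 1.08 CPM in knockout and 50.5 ± 0.121 CPM in control cultures (−0.66). Syk, the kinase that ITAMs recruit, averaged 27.5 ± 0.341 CPM in knockout and 38.9 ± 1.86 CPM in control cultures (−0.50). Ptpn6, the phosphatase SHP-1, averaged 1.61 ± 0.455 CPM in knockout and 5.14 ± 0.256 CPM in control cultures (−1.665), and Vav1, a guanine nucleotide exchange factor of blood cells, 2.81 ± 0.323 and 6.56 ± 1.19 CPM in knockout and control cultures (−1.22).

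Activation and phagocyte genes, the most abundant role group, were split between a fall and no call. Of 8 tested, 4 fell (Lyz2, Ctss, Msr1 and Cd14), 0 rose and 4 were not called (Cybb, Cyba, Cd68 and Clec7a), with a median log2 fold change of −0.32. None of the 4 that fell changed by 2-fold. The share over all genes tested was 18.7% lower and 19.6% higher. Lyz2, the macrophage lysozyme, was at 188, 199 and 182 CPM in knockout libraries and 331, 333 and 320.3 CPM in control libraries (−0.79, SE 0.05, adjusted p = 2.2e-10). Per kilobase of exon it was at 144 ± 6.64 CPM in knockout and 249 ± 5.17 CPM in control cultures, beside 102 ± 0.912 and 224 ± 4.93 CPM per kilobase for Gfap. Its near copy Lyz1, 95.8% identical over 1264 bases, had at most 17 counts in a library.

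Ctss, a lysosomal protease gene of antigen-presenting cells, averaged 15.3 ± 1.14 CPM in knockout and 24.6 ± 1.41 CPM in control cultures (log2 fold change −0.68). Msr1, a scavenger receptor gene, averaged 8.90 ± 1.13 CPM in knockout and 12.7 ± 0.299 CPM in control cultures (−0.51). Cd14, the lipopolysaccharide co-receptor, was at 50.4, 45.0 and 52.5 CPM in knockout and 69.8, 67.6 and 65.7 CPM in control libraries (−0.46, SE 0.06). Cd68, a lysosomal membrane marker of phagocytes, was at 18.6, 17.5 and 19.9 CPM in knockout and 20.8, 19.3 and 16.02 CPM in control libraries (0.00085, SE 0.10). Clec7a, the β-glucan receptor dectin-1 that marks activated microglia, was at 20.3, 22.8 and 19.5 CPM in knockout libraries and 16.6, 18.8 and 19.5 CPM in control libraries (0.18, SE 0.09, adjusted p = 0.11). Thus within the group the lysozyme, protease and scavenger genes fell, while the lysosomal marker and dectin-1 were not called.

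Both membrane subunits of the oxidase were not called, while the partner genes Ncf1, Ncf4 and Rac2 fell. Cybb, the catalytic subunit gp91phox of the phagocyte NADPH oxidase, was at 96.7, 108 and 96.3 CPM in knockout and 98.8, 97.5 and 106 CPM in control libraries (−0.01, SE 0.06, adjusted p = 0.93). Cyba, its membrane partner p22phox, which many cell types express, was at 65.6, 53.0 and 65.9 CPM in knockout and 73.2, 71.6 and 63.7 CPM in control libraries (−0.17, SE 0.08, adjusted p = 0.098). Cyba passed the threshold under total-count scaling (0.030), with no filter on low counts (0.0127) and without control replicate 3 (0.0428). Ncf1 (p47phox) averaged 2.15 ± 0.213 CPM in knockout and 5.998 ± 0.5503 CPM in control cultures (−1.48), and Ncf4 (p40phox) 3.31 ± 0.0541 and 6.57 ± 0.624 CPM in knockout and control cultures (−0.99). Rac2, a GTPase gene of blood cells, averaged 7.60 ± 1.298 CPM in knockout and 13.2 ± 1.502 CPM in control cultures (−0.79). The summed CPM of these 3 divided by that of Cybb was 0.1501, 0.117 and 0.126 in knockout libraries and 0.2800, 0.251 and 0.238 in control libraries. This ratio, too, restates the values of its genes and was not tested apart from them.

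**Figure D4:**
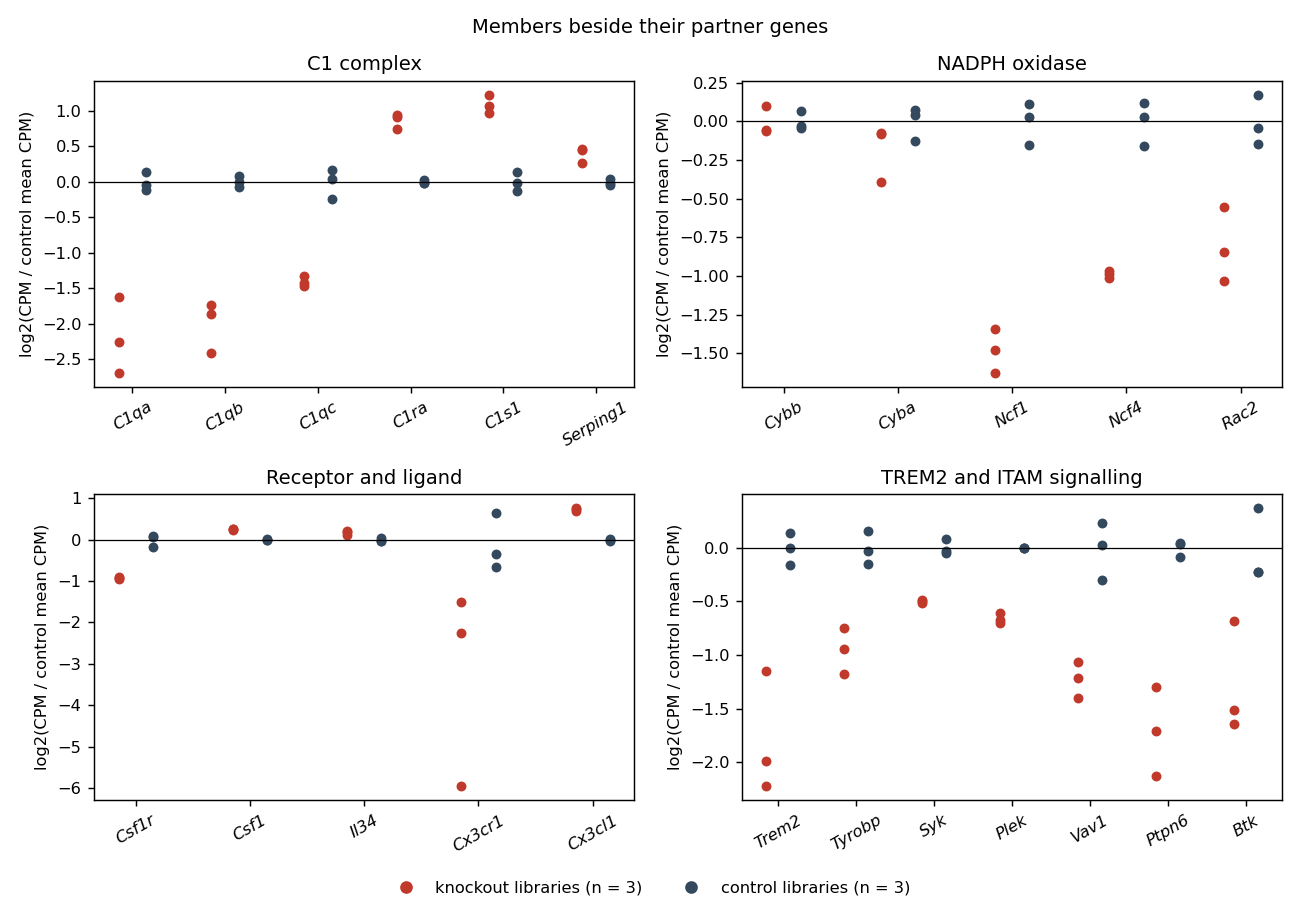
Points give, for each library, the log2 ratio of a gene's CPM to its control mean, knockout (red) left of control (dark blue), for genes of the C1 complex, the NADPH oxidase, receptor and ligand pairs and TREM2 signalling. C1q chains lie below 0 and C1ra, C1s1 and Serping1 above it in knockout libraries, Cybb lies near 0 while Ncf1, Ncf4 and Rac2 lie below, and Csf1r and Cx3cr1 lie below 0 while Csf1 and Cx3cl1 lie above.

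Border macrophages line the meninges and vessels. Ms4a7, a gene they share with activated microglia, was at 2.42, 2.60 and 2.27 CPM in knockout libraries and 4.66, 5.55 and 4.62 CPM in control libraries (log2 fold change −1.02, SE 0.17, adjusted p = 8.1e-05). Mrc1, the mannose receptor, was at 0.492, 1.23 and 0.616 CPM in knockout and 1.03, 1.39 and 1.12 CPM in control libraries (−0.60, SE 0.37, adjusted p = 0.22). Without knockout replicate 2, its highest knockout library, the Mrc1 value was −1.09 and the adjusted p 0.019. Of 9 further border macrophage markers, 6 could be tested and 3 fell, beside 18.7% lower over all genes tested. These were Stab1, a scavenger receptor gene, at 7.14 ± 0.501 CPM in knockout and 16.8 ± 1.36 CPM in control cultures, Cbr2, a carbonyl reductase gene, at 2.52 ± 0.655 and 4.09 ± 0.851 CPM, and Clec4n, which encodes dectin-2, at 4.50 ± 0.750 and 6.26 ± 0.624 CPM. F13a1, Pf4 and Folr2 were tested and not called. Pf4 averaged 3.45 ± 0.931 CPM in knockout and 3.98 ± 0.129 CPM in control cultures, and its groups overlapped (adjusted p = 0.42). The 3 markers not tested had few counts. Lyve1, a hyaluronan receptor gene, had 0 counts in each knockout library and 13, 6 and 5 in control libraries. Cd163 had at most 6 in a library and Clec10a at most 4.

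The genes did not move by one factor, and their proportions differed between the genotypes. As shares of the summed CPM of all 44 genes, Lyz2 held 29.96% ± 1.10 in knockout and 36.7% ± 0.113 in control cultures. Cybb held 15.8% ± 0.860 in knockout and 11.3% ± 0.733 in control cultures, and Cd53 2.77% ± 0.201 and 1.54% ± 0.0303. C1qb held 0.463% ± 0.111 in knockout and 1.29% ± 0.0955 in control cultures, and Trem2 0.178% ± 0.0720 and 0.414% ± 0.0352. Shares of 1 total depend on each other and were not tested.

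The cues that microglia receive moved in both directions. Of 10 ligands and cues, 5 rose, 3 fell and 2 were not called, beside 19.6% higher and 18.7% lower over all genes tested. The survival factor gene Csf1 rose to 3186 ± 44.3 CPM in knockout cultures, against 2676.5 ± 17.7 CPM in control cultures (log2 fold change 0.25), and Il34 averaged 29.5 ± 0.862 and 26.2 ± 0.650 CPM in knockout and control cultures (0.17, adjusted p = 0.051). Their receptor gene Csf1r fell, as given above. Cx3cl1, fractalkine, rose to 1106 ± 24.2 CPM in knockout cultures, against 662 ± 8.69 CPM in control cultures (0.74), while its receptor gene Cx3cr1 fell. Il33, an alarmin gene that acts on microglia, rose to 20.5 ± 1.90 CPM in knockout cultures, against 7.89 ± 0.466 CPM in control cultures (1.38). Cd47, the signal that restrains phagocytosis, rose to 251 ± 5.77 CPM in knockout cultures, against 163 ± 0.675 CPM in control cultures (0.63).

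Among the TGF-β genes, whose products maintain the homeostatic microglial state, Tgfb1 rose to 97.8 ± 8.77 CPM in knockout cultures, against 84.6 ± 2.53 CPM in control cultures. Tgfb2 fell to 58.6 ± 3.89 CPM in knockout cultures, against 72.1 ± 0.189 CPM in control cultures, and Tgfb3 to 67.8 ± 0.967 CPM, against 81.9 ± 0.445 CPM. Apoe, a lipid carrier gene of astrocytes and activated microglia, fell to 652 ± 71.9 CPM in knockout cultures, against 939 ± 43.6 CPM in control cultures. Cd200, an inhibitory ligand gene, averaged 21.96 ± 1.298 CPM in knockout and 22.6 ± 1.53 CPM in control cultures and was not called.

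Of 25 further microglia and myeloid genes, 24 were tested, 5 fell and 4 rose (median −0.11), which is near the 18.7% lower and 19.6% higher over all genes tested. Cd48, an adhesion ligand gene of leukocytes, fell to 0.423 ± 0.293 CPM in knockout cultures, against 2.04 ± 0.247 CPM in control cultures, and Slamf9 to 0.382 ± 0.0369 CPM, against 1.23 ± 0.354 CPM. Csf2rb, the shared β receptor chain for GM-CSF, rose to 17.1 ± 0.936 CPM in knockout cultures, against 10.5 ± 1.13 CPM in control cultures. Itgb5, an integrin gene that other cells also express, fell to 182 ± 10.1 CPM in knockout cultures, against 225 ± 5.64 CPM in control cultures.

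Genes of the disease-associated microglial state were split evenly, 6 higher and 6 lower of 17 tested (median 0.06). Over all genes tested, 19.6% were higher and 18.7% lower. Apoe and Csf1 belong to this list and to the ligands and cues above. Spp1, osteopontin, rose to 476 ± 46.5 CPM in knockout cultures, against 299 ± 5.42 CPM in control cultures, and Axl, a receptor for apoptotic cells, to 726 ± 7.56 CPM, against 542 ± 2.79 CPM. Lpl, lipoprotein lipase, fell to 57.2 ± 3.32 CPM in knockout cultures, against 95.4 ± 1.41 CPM in control cultures, and Cd9 to 203 ± 3.86 CPM, against 259 ± 7.32 CPM. Astrocytes express many of these genes too. Cst7, the remaining gene of the 18, had at most 22 counts in a library and was not tested.

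MHC class II genes, which present antigen in activated microglia, rose in 5 of 7 cases and fell in 0 (median 1.04). For this list and the interferon-stimulated genes below, the share over all genes tested was 19.6% higher and 18.7% lower. Cd74, the invariant chain, rose to 44.96 ± 1.19 CPM in knockout cultures, against 21.9 ± 0.813 CPM in control cultures, and H2-Ab1 to 11.4 ± 1.22 CPM, against 4.52 ± 0.427 CPM. H2-Aa averaged 7.58 ± 0.549 CPM in knockout and 3.34 ± 0.244 CPM in control cultures, and H2-Eb1 5.15 ± 0.532 and 2.02 ± 0.652 CPM. Interferon-stimulated genes rose beside them, 12 of 12 (median 1.18), with Iigp1 at 388 ± 29.6 CPM in knockout and 82.7 ± 1.01 CPM in control cultures, Ifit1 at 1052 ± 49.2 and 369 ± 5.85 CPM, and Gbp2 and Ifit3 likewise higher by more than 2-fold. The part of these genes in the values of the 44 was not tested.

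Markers of lymphocytes and mast cells had few counts, and those of monocytes and neutrophils were mixed. Of 11 lymphocyte and mast cell markers, 1 had enough counts to test, and their sum was 0.123 to 0.241 CPM in knockout and 0.305 to 0.611 CPM in control libraries. Ms4a1, Nkg7 and Fcer1a were at 0 in all libraries. Of 11 monocyte and neutrophil markers, 5 were tested, Plac8 rose and Csf3r fell, beside 19.6% higher and 18.7% lower over all genes tested. The sum of the 11 was 5.66 to 6.72 CPM in knockout and 4.29 to 4.79 CPM in control libraries. S100a8, a calcium-binding protein gene of myeloid cells, had 99, 95 and 67 counts in knockout libraries and 62, 47 and 104 in control libraries and was not called. Chil3 and Elane were at 0 in all libraries, and Ccr2, the receptor of inflammatory monocytes, had at most 5 counts in a library. Plac8 was at 3.75 ± 0.509 CPM in knockout and 1.36 ± 0.392 CPM in control cultures, and Csf3r, the G-CSF receptor gene, at 0.478 ± 0.247 and 1.82 ± 0.264 CPM. The part of such cells in the values of the 44 genes was not tested.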

How the data were processed

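RNA-seq libraries (3 knockout, 3 control) were made with poly-T beads from Trizol RNA, per the labels' protocols. The authors processed reads with HISAT2 2.2.1 and featureCounts 2.0.6 on GRCm38 (mm10), per the submitters' processing notes, and deposited raw counts per gene. No source used here gives the annotation release, strand setting or handling of multi-mapped reads; overlapping genes and near copies are therefore uncertain. Columns were matched to samples by library name.

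The test was edgeR 4.0.16 (R 4.3.3) on genes kept by filterByExpr (minimum count 10, minimum total 15; TMM, glmQLFit with the robust option, glmQLFTest, genotype alone, two-sided, Benjamini-Hochberg over all genes, threshold 0.05). CPM uses TMM-adjusted library sizes, and standard errors come from the test statistic. CPM per kilobase uses union exon length from GENCODE M21, which also gave positions. Near copies came from BLAST 2.17.0 (at least 95% identity over at least 100 bases). Limits from a count of 0 use 3 counts and cover counting error only. The fit was tested on simulated data with 67, 67 and 66 genes changed by 1.5-, 2- and 4-fold among 18530. It recovered 92.5%, 91% and 95.5% of them. Of its 205 calls, 19 were false, a share above the threshold of 0.05. Far fewer genes were changed in the simulation than were called in the data.

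All 44 members are named; of each other list, up to 4 called genes with the smallest p, and all ligands, C1 and oxidase partners. Markers at or near 0, and genes behind counts of 5 or fewer, are named beside this rule, after their values were seen. Of these lists, 1 gene is not reported here. Members and lists were chosen with earlier results of these data known. No pair of libraries within a group looked like one library deposited again (chi-square per gene 5.97 to 21.8). Alternatives were other normalisations, DESeq2 1.42.0, limma-voom (limma 3.58.1), filters, no robust option, a replicate block, left-out libraries, a threshold of 0.01 and a test against a fold of 1.5.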

Additional observations from a re-analysis of the deposited data

How the results depend on the processing

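Over 17 alternatives, 692 fold changes of single members were recomputed: 643 kept direction and side of the threshold, 25 lost the call, 7 gained it and 17 changed sign, all 17 in members with no call. The sign changes were in P2ry12 (0.1879 with limma-voom, 0.08309 with the replicate block, −0.5174 to 0.5545 with 1 library left out), Cd68 (−0.01599 with upper-quartile scaling, −0.06403 with total counts alone, −0.005811 with no filter, −0.1066 to 0.08061 with 1 library left out), Irf8 (−0.393 to 0.06759), Fcgr3 (−0.2087 to 0.03849) and Cybb (−0.0626 to 0.02473), the last 3 with 1 library left out. In 14 of the 27 called members the call held under every alternative. The median log2 fold change of the tested members, −0.60, was −0.6197 with upper-quartile scaling, −0.6705 with total counts alone, −0.6818 with limma-voom, −0.5718 with a filter of 1 CPM in 3 libraries and −0.6855 with a replicate block, and ran from −0.693 to −0.5965 when 1 library was left out. Homeostatic genes called higher, 2, became 1 with total counts alone, without the robust option and at an adjusted p under 0.01, and were 1 to 2 with 1 library left out; those called lower, 3, ranged from 2 to 4 over all alternatives. Border macrophage genes called lower were 1 to 2 with 1 library left out. A test against a fold of 1.5 called 666 genes higher and 348 lower in all, with 0 members higher and 14 lower, 0 homeostatic genes higher, 0 lineage genes higher and 4 lower, and 1 activation gene lower. Deviations from the group mean correlated at 0.0151, 0.0194 and −0.0082 between same-numbered libraries. Different-numbered pairs gave −0.0219 to 0.0126. The numbers thus show no sign of pairing, but with 3 libraries a group this check cannot exclude it. With the replicate block 24 members were lower and 3 higher, and all genes gave 3383 lower and 3501 higher. P2ry12, Cx3cr1 and Aif1 had few counts, and Aif1 kept its direction and call in all 17 alternatives. The cause of the shifts was not tested.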
